A study of Mus musculus with 12 samples.

Results

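The genes described here are 8 genes of Schwann cells and their myelin, Mbp, Pmp22, Prx, Sox10, Cdh19, S100b, L1cam and Scn7a, chosen by name from the 55487 genes that each deposited table lists. Each of the 8 names matched 1 row of the tables. RNA was measured by sequencing in skin wounds of male C57BL/6JNarl mice aged 6 weeks, which carried a pair of full-thickness punch wounds on the back. Wounds received Pluronic F127 gel alone once daily (sham wounds) or the same gel with 10 µM capsaicin (CAP, the pungent compound of chili peppers; CAP-treated wounds), and tissue was taken at day 3 or day 6. There were 3 libraries in each of the 4 groups, sham wounds at day 3, CAP-treated wounds at day 3, sham wounds at day 6 and CAP-treated wounds at day 6, and all 12 libraries come from wounded skin, so none shows intact skin. No source used here says whether the libraries of a group came from separate mice. The n given is therefore a number of libraries, and the p-values measure the spread between these libraries, which may be partly technical.

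Schwann cells are the glial cells of peripheral nerves. Some wrap a stretch of axon in compact myelin, a stack of membrane held together by proteins such as PMP22 and myelin basic protein, while others hold bundles of thin axons without myelin, and both kinds run with the sensory and autonomic fibres of the skin. When a nerve is cut, as in a skin wound, Schwann cells beyond the cut are known to lower their myelin genes and to take up a repair state that guides regrowing axons.

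Values are in TPM, the unit of the tables, which is a share of the library's transcripts corrected for gene length, so that levels of different genes can be set side by side. In bulk tissue, fewer Schwann cells and less RNA per Schwann cell cannot be told apart. The tables do not carry read depth, so counting error is unknown. At 0.3 TPM or more, each library held 18533 to 19325 genes, and 1 library, CAP-treated day 6 replicate 2, stood apart with a single keratin gene, Krt10, at 40801 TPM. The column names of the tables end alike for all day 3 libraries and differently for all day 6 libraries, with no stated meaning, so whatever that marks and the day of healing cannot be told apart.

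The label of these genes was checked against other Schwann cell markers. Drp2, which encodes a dystrophin-related protein of myelinating Schwann cells, was found in every library at 0.956 to 4.54 TPM, and Ncmap, a small membrane protein of peripheral myelin, at 0.820 to 3.43 TPM. Of 14 other myelin genes, 14 had a mean of 0.3 TPM or more, though Pmp2 fell to 0.109 and Gldn to 0.200 TPM in a library. Of 11 genes of Schwann cells without myelin and of the repair state, 8 reached that mean. Gfap, at 0 to 0.191 TPM, Shh and Olig1 did not. Of 5 other transcription factors of the lineage, 3 reached it. All 8 genes described here were above 0.3 TPM in every library. The bodies of sensory neurons lie outside the skin, and of 17 neuron and axon markers 6 reached a mean of 0.3 TPM, while the sodium channel gene Scn10a was listed at 0 in 12 of 12 libraries. Melanocytes, the other skin cells that use Sox10 and S100b, had 3 of 8 markers at a mean of 0.3 TPM or more, Pmel at 0.3003 to 1.43 TPM, Dct at 0.129 to 1.26 TPM and Mlana from 0 to 2.60 TPM, levels that overlap those of Sox10 and S100b. The summed level of the 8 was 1.24 to 4.95 TPM, with Tyr, Slc45a2, Oca2 and Gpr143 at or near 0, and the part of melanocytes in the levels of Sox10 and S100b was not tested.

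RefSeq's table for GRCm38.p6 gave promoter sequences for 5 of the 8 genes. Mbp was left out of this search, and Sox10 and Cdh19 were not matched. The sequences of Prx, Pmp22 and L1cam are printed because these are the 3 members whose groups did not overlap in a comparison where the unadjusted p was also under 0.05. Each line gives the 250 bases just before a transcription start, 5′ to 3′ on the gene's own strand. Capitals mark GGGCGG or its reverse complement CCGCCC, the GC box bound by Sp1 and related factors. Prx is shown at chr7:27499074-27499323 (+), L1cam at chrX:73880791-73881040 (-), and Pmp22 before 2 of its 4 listed starts, at chr11:63128732-63128981 (+) and chr11:63131207-63131456 (+). The bases just after the second of these Pmp22 starts matched no GENCODE M21 transcript of the gene, unlike those after the other starts shown.
Prx: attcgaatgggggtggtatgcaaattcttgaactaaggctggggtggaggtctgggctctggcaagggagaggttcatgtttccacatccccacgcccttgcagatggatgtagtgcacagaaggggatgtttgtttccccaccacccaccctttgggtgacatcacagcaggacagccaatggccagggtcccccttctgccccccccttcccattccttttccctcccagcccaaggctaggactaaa
Pmp22, first start: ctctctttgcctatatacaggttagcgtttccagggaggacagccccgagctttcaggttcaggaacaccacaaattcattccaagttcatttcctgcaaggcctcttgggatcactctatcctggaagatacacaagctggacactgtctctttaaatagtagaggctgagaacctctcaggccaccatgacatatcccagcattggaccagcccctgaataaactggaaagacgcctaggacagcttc
Pmp22, second start: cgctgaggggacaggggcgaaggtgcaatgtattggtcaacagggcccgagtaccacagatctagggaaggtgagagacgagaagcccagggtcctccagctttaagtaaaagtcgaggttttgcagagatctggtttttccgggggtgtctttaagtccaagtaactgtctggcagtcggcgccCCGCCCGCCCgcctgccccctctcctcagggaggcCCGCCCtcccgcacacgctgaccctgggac
L1cam: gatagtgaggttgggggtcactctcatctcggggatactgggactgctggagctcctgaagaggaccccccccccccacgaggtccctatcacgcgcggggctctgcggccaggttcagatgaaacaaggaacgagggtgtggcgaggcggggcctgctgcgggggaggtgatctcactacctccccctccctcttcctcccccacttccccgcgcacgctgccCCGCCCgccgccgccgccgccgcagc

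The 4 windows differed in base composition, with a GC content of 56.4% for Prx, 48.8% and 61.2% for the first and second Pmp22 starts and 69.6% for L1cam, against a median of 52.4% over the 32851 promoters of the table. The GC box occurred 3 times before the second Pmp22 start, once before the L1cam start shown and not before the first Pmp22 start or that of Prx. In all, 32.7% of promoters held it on either strand. The Pmp22 windows not shown, at chr11:63132319-63132568 (+) and chr11:63132553-63132802 (+), had a GC content of 64.8% and 73.6%. They held 0 and 3 GC boxes, and the bases after both starts matched a transcript of the gene. A core of SOX sites was also searched on both strands, as ACAAAG, held by 16.5% of promoters, and ACAATG, held by 10.7%. Neither occurred in the windows of these 5 genes, which says only that those letters are not in them. The gene-level TPM values do not separate the starts of Pmp22, which is known to be made from alternative promoters in Schwann cells and in other tissues.

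The levels of the 8 genes spanned a wide range and kept nearly the same order in all 4 groups. Over the 12 libraries, Pmp22 had the highest mean at 236 ± 60.7 TPM (SD, n = 12), followed by Mbp at 57.9 ± 10.2, L1cam at 20.8 ± 5.50 and Scn7a at 9.67 ± 2.62. Prx followed at 6.65 ± 1.82 TPM, Sox10 at 1.34 ± 0.476, S100b at 0.978 ± 0.474 and Cdh19 at 0.771 ± 0.246. Pmp22 exceeded Mbp, Mbp exceeded L1cam, L1cam exceeded Scn7a and Prx exceeded Sox10 in 12 of 12 libraries. The neighbours Scn7a and Prx kept their order in 8 of 12 libraries, Sox10 and S100b in 8 and S100b and Cdh19 in 9. The differences in level between these neighbours were not tested.

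**Figure D1:**
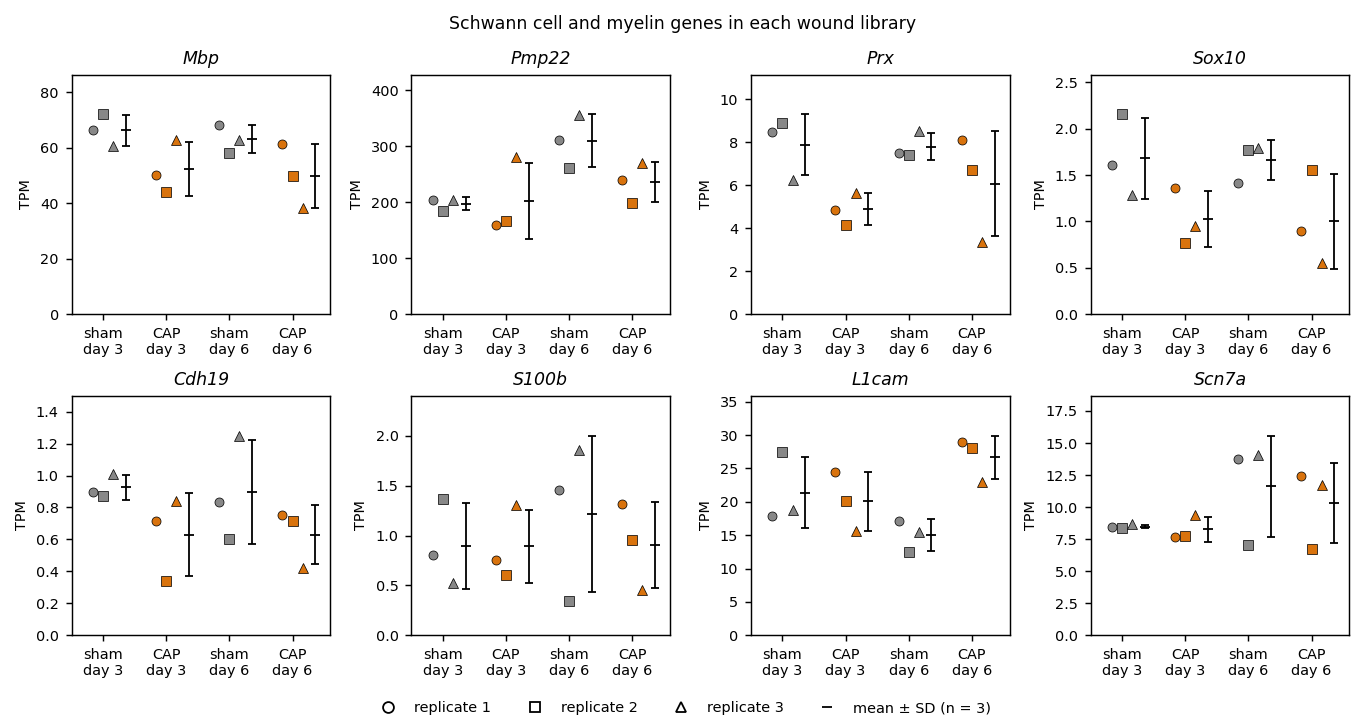
TPM of each of the 8 genes (vertical axes, from 0) in the 12 wound libraries, with grey points for sham wounds, orange points for CAP-treated wounds, a point shape for each replicate number, and bars for the mean ± SD of 3 libraries. Prx at day 3 shows 3 CAP-treated libraries at 4.16 to 5.64 TPM, all under the 3 sham libraries, and L1cam at day 6 shows 3 CAP-treated libraries at 22.9 to 29.0 TPM, all above the sham libraries.

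Whether CAP was followed by a different level of these genes was asked first at day 3. None of the 8 passed the study's threshold of an unadjusted p under 0.05 and a 2-fold difference, which 1.58% of the 18330 genes tested passed (limma on log2(TPM + 0.1)). Of the 8, 7 were lower and 1 was higher in CAP-treated wounds, a split of 5 to 3 when the libraries were rescaled by median ratios and without CAP-treated replicate 1 or 2, and the median log2 difference was -0.22 against -0.05 over all genes tested. Without CAP-treated replicate 3 it was -0.38. The myelin genes Prx and Mbp had an unadjusted p under 0.05, with 0.575 as the lowest adjusted p, and 6.60% of all genes had such a p.

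Prx encodes periaxin, a scaffold protein of the outer Schwann cell membrane that holds myelin to the basal lamina, and without which myelin becomes unstable. At day 3 it was at 8.48, 8.88 and 6.25 TPM in sham replicates 1 to 3 and at 4.85, 4.16 and 5.64 TPM in CAP-treated replicates 1 to 3. The highest CAP-treated library was thus under the lowest sham library. Prx was lower by a log2 difference of -0.67 (SE 0.19), or 1.59-fold (limma, unadjusted p = 0.0100, adjusted p = 0.575), and the exact 2-sided permutation p was 0.1, the smallest that 3 against 3 libraries allow. With each library left out in turn, the difference stayed between -0.83 and -0.56.

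Mbp encodes myelin basic protein, which glues the inner faces of the myelin membrane together, and its locus also gives other transcripts outside myelin. It was at 66.2, 72.0 and 60.6 TPM in sham wounds at day 3 and at 50.004, 44.0 and 62.9 TPM in CAP-treated wounds. CAP-treated replicate 3 lay inside the sham range and the other two libraries lay under it. The log2 difference was -0.35 (SE 0.15; limma, unadjusted p = 0.0469, adjusted p = 0.746; exact permutation p = 0.2), and without CAP-treated replicate 2 it was -0.24.

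Pmp22 encodes a tetraspan protein of compact myelin that fibroblasts and epithelia also make. In sham wounds at day 3 it was at 204, 184 and 203 TPM, and in CAP-treated wounds at 160, 166 and 281 TPM. CAP-treated replicates 1 and 2 were under all sham libraries and replicate 3 was above all of them, and the log2 difference was -0.01 (SE 0.22).

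Sox10 and Cdh19 mark the lineage rather than the sheath. Sox10 encodes the transcription factor without which Schwann cells do not form, and Cdh19 an adhesion protein of the cadherin family known from Schwann cells and their precursors. Sox10 was at 1.60, 2.15 and 1.29 TPM in sham wounds at day 3 and at 1.36, 0.767 and 0.948 TPM in CAP-treated wounds, so that CAP-treated replicate 1 lay inside the sham range. The log2 difference was -0.67 (SE 0.31; limma, unadjusted p = 0.0682, adjusted p = 0.790). Cdh19 was at 0.895, 0.869 and 1.01 TPM in sham wounds and at 0.718, 0.337 and 0.837 TPM in CAP-treated wounds. All CAP-treated libraries were under all sham libraries, and the log2 difference was -0.56 (SE 0.37; limma, unadjusted p = 0.174, adjusted p = 0.857; exact permutation p = 0.1). It was -0.23 without CAP-treated replicate 2 and -0.25 with 1 TPM in place of 0.1 added before the log. Prx and Cdh19 were thus the 2 of 8 genes whose CAP-treated libraries all lay under the sham libraries at day 3, as 8.75% of all genes tested did.

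The estimates of the other three genes lay near 0 at day 3. L1cam encodes an adhesion protein of axons and of Schwann cells without myelin, which epithelial cells can also make, and its log2 difference was -0.09 (SE 0.22). Scn7a encodes an atypical sodium channel known from Schwann cells without myelin, with a log2 difference of -0.04 (SE 0.13) and a 95% interval of -0.34 to 0.25. S100b encodes a calcium-binding protein of glia that fat cells and melanocytes also make, with a log2 difference of 0.02 (SE 0.43) and a 95% interval of -1.01 to 1.04.

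Other myelin genes were then counted, from a list of 14 that holds no member. At day 3, 9 of the 14 were lower in CAP-treated wounds and 5 were higher (8 and 6 after median-ratio scaling), none passed the threshold, and the median log2 difference was -0.18. With 1 library left out, 1 of the 14 fell past the threshold without sham replicate 2, sham replicate 3, CAP-treated replicate 1 or CAP-treated replicate 3. Of the 4 genes with the highest means, Cnp, an enzyme of uncompacted myelin, differed by -0.26, Cadm4, an adhesion protein between axon and sheath, by -0.20, Mal, a membrane lipid-raft protein, by 0.38 and Fa2h, a hydroxylase for the fatty acids of myelin lipids, by -0.81 on the log2 scale. All 4 had an adjusted p of 0.842 or more (limma).

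In all, 3 of the 14 were lower at an unadjusted p under 0.05 (5.14% of all genes tested were), and the same 3 had no overlap between groups in that direction (8.75% of all genes had none). These were Drp2, Cldn19 and Ugt8a, named after their values were seen. Drp2, whose protein binds periaxin at the outer membrane, was at 4.54, 3.71 and 4.32 TPM in sham wounds and at 2.75, 1.53 and 2.01 TPM in CAP-treated wounds. Its log2 difference of -0.997 (SE 0.24; limma, unadjusted p = 0.00456, adjusted p = 0.522) lay just short of the 2-fold limit. Cldn19, a claudin of Schwann cell tight junctions, differed by -0.64 and Ugt8a, the enzyme that starts the synthesis of the myelin lipid galactosylceramide, by -0.95 on the log2 scale.

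**Figure D2:**
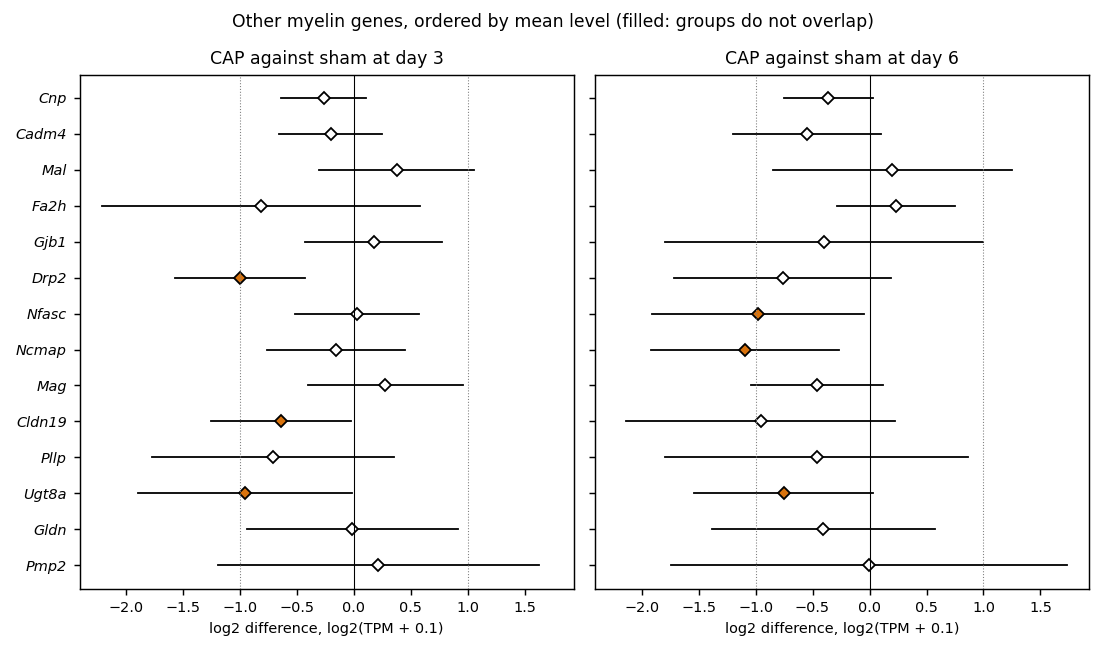
Log2 difference, CAP-treated minus sham wounds, of 14 other myelin genes at day 3 (left) and day 6 (right), on log2(TPM + 0.1), with the 95% interval of each limma estimate as a line and dotted lines at 2-fold. Filled diamonds mark genes whose groups do not overlap, 3 at day 3 and 3 at day 6, and Ncmap at day 6 passes the threshold.

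Some marker lists of other cells were lower on average at day 3 as well. Of 7 fibroblast markers, 7 were lower in CAP-treated wounds, 3 of them at an unadjusted p under 0.05 (limma), as were 5.14% of all genes. Their summed level was 15073 to 23306 TPM in sham wounds and 10557 to 15895 TPM in CAP-treated wounds. Skeletal muscle markers, which include genes of the thin muscle layer under mouse skin, were also lower in 8 of 8, with sums of 4176 to 6186 and 2158 to 6014 TPM. Of 5 T cell markers, 4 were tested and 2 fell past the threshold, which 1.58% of all genes passed in either direction. The sums of fibroblast, skeletal muscle, T cell, adipocyte, melanocyte and keratinocyte markers all overlapped between the groups. No skeletal muscle marker had an unadjusted p under 0.05 (limma). The part of these tissues in the levels of the myelin genes was not tested.

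At day 6 the same comparison again gave 7 genes lower and 1 higher in CAP-treated wounds, also after median-ratio scaling, and a split of 5 to 3 without sham replicate 3, and none of the 8 passed the threshold that 3.80% of 18323 genes passed. The day 3 and day 6 comparisons share no library. The median log2 difference of the 8 was -0.38 against -0.12 over all genes tested, and median-ratio scaling moved that overall median to -0.01 and the median of the 8 to -0.26. Without CAP-treated replicate 3 the median of the 8 was -0.195, and without sham replicate 3 it was -0.24. Scaling also turned the split of all genes past the threshold, from 268 higher and 429 lower to 389 higher and 299 lower. L1cam and Pmp22 had an unadjusted p under 0.05, as did 19.2% of all genes, and no gene of the whole table had an adjusted p under 0.05, although 3517 had an unadjusted p under 0.05 (limma). Without CAP-treated replicate 3, 1430 genes had an adjusted p under 0.05, L1cam among them (limma, adjusted p = 0.0345).

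L1cam was the 1 gene of the 8 that was higher. At day 6 it was at 17.2, 12.5 and 15.5 TPM in sham replicates 1 to 3 and at 29.0, 28.0 and 22.9 TPM in CAP-treated replicates 1 to 3. All CAP-treated libraries were above all sham libraries, as in 8.01% of genes tested. The log2 difference was 0.83 (SE 0.16), or 1.77-fold (limma, unadjusted p = 0.00128, adjusted p = 0.205), with an exact permutation p of 0.1, and it stayed between 0.70 and 0.93 with each library left out. The gene lies at chrX:73853778-73896105 (-) on mm10 and shares bases with Arhgap4 on the same strand, whose reads could be split differently. Arhgap4 went the other way at day 6, at 14.3, 14.1 and 13.9 TPM in sham wounds and 10.4, 5.13 and 12.6 TPM in CAP-treated wounds. At day 3 Arhgap4 was at 34.4, 20.3 and 24.0 TPM in sham wounds and 16.2, 13.4 and 19.8 TPM in CAP-treated wounds. From day 3 to day 6 in sham wounds, Arhgap4 and L1cam were both lower. In CAP-treated wounds between the same days, Arhgap4 was lower and L1cam was higher on average. How reads were split between the 2 genes was not tested.

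Markers of other cells also differed at day 6, some lists higher and others lower in CAP-treated wounds. In this comparison 3.80% of all genes tested passed the threshold in either direction. The summed level of 7 keratinocyte markers was 25010 to 28037 TPM in sham wounds and 42848 to 90206 TPM in CAP-treated wounds, with 5 of the 7 higher and 2 past the threshold. The sum of 6 endothelial markers was 229 to 312 TPM in sham wounds and 69.2 to 189 TPM in CAP-treated wounds, with 6 of 6 lower and 3 past the threshold. In both lists the summed levels of the groups did not overlap. Krt1 and Krt10 differed most in the keratinocyte list, with means of 5150 and 7748 TPM in sham wounds. In CAP-treated wounds their means were 19616 and 25778 TPM. Krt14 and Trp63 overlapped between the groups, and Dsg3 and Itga6 were lower on average in CAP-treated wounds. Macrophage and neutrophil markers were lower in 6 of 6 tested, with sums of 3199 to 4437 and 924 to 3505 TPM. Skeletal muscle markers were lower in 8 of 8 with 1 past the threshold, at sums of 2569 to 3764 and 1975 to 2764 TPM. Adipocyte markers were higher in 8 of 9 with 1, Lep, past the threshold, at sums of 474 to 849 and 609.7 to 1047 TPM. The part of these cells in the levels of L1cam, of S100b and Ncam1 and of the myelin genes was not tested.

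The compact myelin genes were lower on average at day 6. Pmp22 was at 311, 261 and 356 TPM in sham wounds and at 240, 199 and 270 TPM in CAP-treated wounds, where CAP-treated replicate 3 lay inside the sham range. The log2 difference was -0.39 (SE 0.16; limma, unadjusted p = 0.0471, adjusted p = 0.255; exact permutation p = 0.2). Mbp was at 68.3, 58.2 and 62.8 TPM in sham wounds and at 61.4, 49.9 and 38.4 TPM in CAP-treated wounds, a log2 difference of -0.36 (SE 0.18; limma, unadjusted p = 0.0795, adjusted p = 0.302).

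For Prx the groups overlapped at day 6. It was at 7.49, 7.39 and 8.49 TPM in sham wounds and at 8.11, 6.72 and 3.37 TPM in CAP-treated wounds. The single library CAP-treated replicate 3 lay far under the others, and the log2 difference of -0.44 (SE 0.32) became -0.07 without it. That of Mbp became -0.19 without the same library.

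Sox10 was at 1.42, 1.78 and 1.80 TPM in sham wounds at day 6 and at 0.893, 1.56 and 0.552 TPM in CAP-treated wounds. CAP-treated replicate 2 lay inside the sham range and the other two libraries lay under it, and the log2 difference was -0.78 (SE 0.38; limma, unadjusted p = 0.0806, adjusted p = 0.304). Without CAP-treated replicate 2, the library whose keratin level stood apart, it passed the threshold at -1.12, and without CAP-treated replicate 3 it was -0.45. Cdh19 differed by -0.43 (SE 0.39), S100b by -0.23 (SE 0.64) and Scn7a by -0.16 (SE 0.34), with overlapping groups in all 3.

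**Figure D3:**
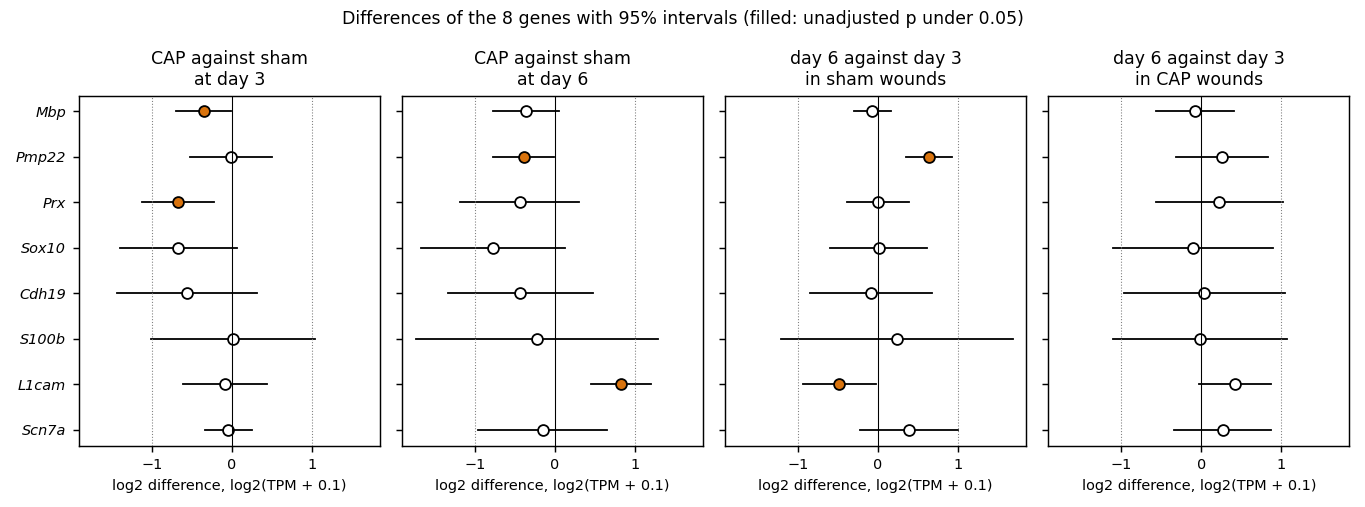
Log2 difference of each of the 8 genes on log2(TPM + 0.1) in 4 comparisons, with the 95% interval of the limma estimate as a line, dotted lines at 2-fold, and filled points where the unadjusted p is under 0.05. No point lies past a dotted line, and L1cam lies at 0.83 for CAP at day 6 and at -0.49 for day 6 against day 3 in sham wounds.

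Of the 14 other myelin genes, 12 were lower and 2 higher in CAP-treated wounds at day 6 (11 and 3 after median-ratio scaling), with a median log2 difference of -0.46. The count without CAP-treated replicate 3 was 10 lower and 4 higher. Ncmap fell past the threshold, from 3.00, 3.43 and 2.51 TPM in sham wounds to 2.096, 1.35 and 0.820 TPM in CAP-treated wounds. Its log2 difference was -1.10 (SE 0.35; limma, unadjusted p = 0.0164, adjusted p = 0.217). The call was lost on adding 1 TPM before taking logs (-0.74), after median-ratio scaling (-0.99), and also without sham replicate 2 (-0.99) and without CAP-treated replicate 3 (-0.78). In all, 2 of the 14, Ncmap and Nfasc, were lower at an unadjusted p under 0.05, as were 12.5% of all genes, and 3 had no overlap in that direction, as had 18.0% of all genes. Cnp differed by -0.36, Cadm4 by -0.55, Mal by 0.20 and Fa2h by 0.23 on the log2 scale.

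The difference between the CAP effects at the 2 days was tested with an interaction term over all 12 libraries. None of the 8 genes passed the threshold, which 4.90% of 20266 genes passed, and L1cam alone had an unadjusted p under 0.05, as did 11.3% of all genes. Its effect at day 6 exceeded that at day 3 by 0.91 on the log2 scale (SE 0.29; limma, unadjusted p = 0.00925, adjusted p = 0.428). The difference passed the 2-fold limit without sham day 3 replicate 1 (1.03), CAP-treated day 3 replicate 1 (1.07), sham day 6 replicate 1 (1.01) or CAP-treated day 6 replicate 3 (1.02). For Prx the difference between the effects was 0.23 (SE 0.39) and for Mbp -0.01 (SE 0.24), with 95% intervals of -0.64 to 1.10 and -0.54 to 0.53.

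In sham wounds, day 6 was compared with day 3 to describe healing without CAP. None of the 8 passed the threshold that 3.75% of 18368 genes passed, and Pmp22 and L1cam had an unadjusted p under 0.05, as did 16.0% of all genes (limma). Pmp22 was at 184 to 204 TPM at day 3 and at 261 to 356 TPM at day 6, with no overlap, as in 10.8% of all genes tested in that direction. The log2 difference was 0.64 (SE 0.12), or 1.56-fold (limma, unadjusted p = 0.00120, adjusted p = 0.0516), with an exact permutation p of 0.1. The adjusted p lay under 0.05 with 1 TPM added before the log (0.0487), the replicate number as a block (0.0455), median-ratio scaling (0.0480) and without sham day 6 replicate 2 (0.0371), and was up to 0.251 in the other settings tried (limma). L1cam was at 17.9, 27.5 and 18.8 TPM at day 3 and at 12.5 to 17.2 TPM at day 6, also without overlap, as in 10.6% of all genes tested in that direction, with a log2 difference of -0.49 (SE 0.19; limma, unadjusted p = 0.0393, adjusted p = 0.279). Mbp, Prx and Sox10 were close to level between the days, with log2 differences of -0.07 (SE 0.10), -0.00055 (SE 0.16) and 0.0067 (SE 0.26). Scn7a was at 8.37 to 8.65 TPM in the 3 sham libraries at day 3 and at 13.8, 7.04 and 14.0 TPM at day 6, a log2 difference of 0.38 (SE 0.26).

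In CAP-treated wounds none of the 8 had an unadjusted p under 0.05 between the days, which 11.6% of 18202 genes had, and none passed the threshold that 2.79% passed (limma). L1cam came closest, at 24.5, 20.1 and 15.6 TPM at day 3 and 29.0, 28.0 and 22.9 TPM at day 6, with a log2 difference of 0.42 (SE 0.19; limma, unadjusted p = 0.0606, adjusted p = 0.447). Replicate 3 of day 6 lay inside the day 3 range. Pmp22 differed by 0.26 (SE 0.24), Scn7a by 0.27 (SE 0.25), Prx by 0.23 (SE 0.33) and Mbp by -0.08 (SE 0.21). These comparisons share the day 3 and day 6 libraries with those of CAP against sham, so their values are not independent of them.

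Among the 14 other myelin genes, 1 rose past the threshold in sham wounds from day 3 to day 6. In CAP-treated wounds 2 fell past it. In these comparisons 3.75% and 2.79% of all genes tested passed it in either direction. Nfasc, whose protein neurofascin holds axon and glia together at the node of Ranvier, rose from 2.65, 1.68 and 1.83 TPM to 5.55, 3.64 and 4.54 TPM in sham wounds (log2 difference 1.12, SE 0.25; limma, unadjusted p = 0.00233, adjusted p = 0.0702). The difference was short of 2-fold with 1 TPM added before the log (0.87), without sham day 3 replicate 2 (0.999) and without sham day 6 replicate 1 (0.98). In CAP-treated wounds Gjb1, the gap junction protein connexin 32, fell by 1.57 (SE 0.49; limma, adjusted p = 0.352) and Cadm4 fell by 1.23 (SE 0.30; limma, adjusted p = 0.295). In sham wounds Cadm4 differed by -0.89 (limma, adjusted p = 0.0362), short of 2-fold. Gjb1 and Cadm4 are also made outside nerves, and the Gjb1 call was lost without CAP-treated day 3 replicate 1 or 2 (limma, unadjusted p of 0.0516 and 0.0515).

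The signals that drive Schwann cells were read from a list of 7 genes. The neuregulin receptor pair Erbb3 and Erbb2, through which axons drive Schwann cell growth and myelination, is also used by keratinocytes. At day 6 Erbb3 was at 40.3, 38.3 and 33.9 TPM in sham wounds and 69.5, 59.8 and 44.9 TPM in CAP-treated wounds, all of the latter higher, with a log2 difference of 0.61 (SE 0.17; limma, unadjusted p = 0.00926, adjusted p = 0.209). Its ligand gene Nrg1 was at 10.8, 11.998 and 8.10 TPM in sham wounds and 6.70, 6.72 and 4.93 TPM in CAP-treated wounds, all of the latter lower, with a log2 difference of -0.74 (SE 0.21; limma, unadjusted p = 0.00914, adjusted p = 0.209). In this comparison 8.01% of all genes tested were higher without overlap, 18.0% were lower without overlap, and 19.2% had an unadjusted p under 0.05 (limma). None of the 7 passed the threshold in any of the 5 comparisons.

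Of 5 other transcription factors of the Schwann cell lineage, 3 were tested in each comparison of CAP with sham and none passed the threshold. Egr2, which switches on myelin genes in Schwann cells, and Pou3f1, which acts before it, were at 29.4 to 51.0 and 45.0 to 91.1 TPM in the 12 libraries. These levels were far above those of Sox10, and both factors are also known from keratinocytes and hair follicles. Sox2 reached at most 0.356 TPM and Pou3f2 at most 0.0386 TPM in a library. Pou3f1 differed by 0.50 at day 6 (SE 0.19; limma, unadjusted p = 0.0336, adjusted p = 0.237).

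Genes of Schwann cells without myelin and of the repair state form a list of 11, of which 8 were tested at each day, and 2 fell past the threshold at day 3 (1.58% of all genes passed it in either direction) and 3 at day 6 (3.80%). Ncam1, an adhesion protein of Schwann cells without myelin that muscle and natural killer cells also make, fell in both comparisons. It was at 16.0, 11.9 and 9.41 TPM in sham wounds and 9.20, 3.66 and 3.54 TPM in CAP-treated wounds at day 3 (log2 difference -1.29, SE 0.39; limma, adjusted p = 0.635). At day 6 it was at 7.999, 10.96 and 11.4 TPM in sham wounds and 2.71, 3.11 and 7.65 TPM in CAP-treated wounds (log2 difference -1.30, SE 0.39; limma, adjusted p = 0.212). In both the groups did not overlap, as in 8.75% of all genes tested in that direction at day 3 and 18.0% at day 6. The call at day 3 was lost without sham replicate 1 (limma, unadjusted p = 0.0502).

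Artn encodes artemin, a growth factor for sensory neurons that repair Schwann cells and skin cells release. It fell at day 3, from 3.18, 2.36 and 3.38 TPM in sham wounds to 1.19, 1.72 and 0.288 TPM in CAP-treated wounds (log2 difference -1.65, SE 0.56; limma, adjusted p = 0.692). That call was lost without sham replicate 1 (-1.59), sham replicate 3 (-1.55) or CAP-treated replicate 3 (-0.99). In sham wounds Artn also fell by 2.03 from day 3 to day 6 (SE 0.44; limma, adjusted p = 0.0671), and Gap43, the growth cone protein of regrowing axons and repair Schwann cells, fell by 1.04 (SE 0.17; limma, adjusted p = 0.0317). The Gap43 difference was short of 2-fold with 1 TPM added before the log (-0.91) and without sham day 3 replicate 2 (-0.96) or 3 (-0.97).

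At day 6 Gfra1, the receptor for the growth factor GDNF, fell by 1.11 (SE 0.37; limma, adjusted p = 0.222) and Fabp7, a fatty acid-binding protein of immature glia, fell by 1.95 (SE 0.75; limma, adjusted p = 0.239) in CAP-treated wounds. Without CAP-treated replicate 2, the Gfra1 difference was -0.73 and that of Fabp7 was -1.69 with an unadjusted p of 0.0912 (limma), so both calls were lost. Both were also lost with 1 TPM added before the log (-0.98 and -0.93) and without sham replicate 1, and that of Fabp7 without sham replicate 2 or CAP-treated replicate 1. Fabp7 was at 1.67, 3.29 and 0.830 TPM in sham wounds and 0.137, 0.223 and 1.17 TPM in CAP-treated wounds, where CAP-treated replicate 3 lay inside the sham range. In the test between the days, the CAP effect on Gfra1 was lower at day 6 by -1.36 (SE 0.58; limma, adjusted p = 0.432) and that on Fabp7 by -2.49 (SE 0.92; limma, adjusted p = 0.428). These calls were lost in 7 and 2 of the 12 fits that left out 1 library. The nerve growth factor receptor gene Ngfr, a marker of Schwann cells without myelin, was at 6.07 to 11.2 TPM in the 12 libraries and passed the threshold in no comparison.

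**Figure D4:**
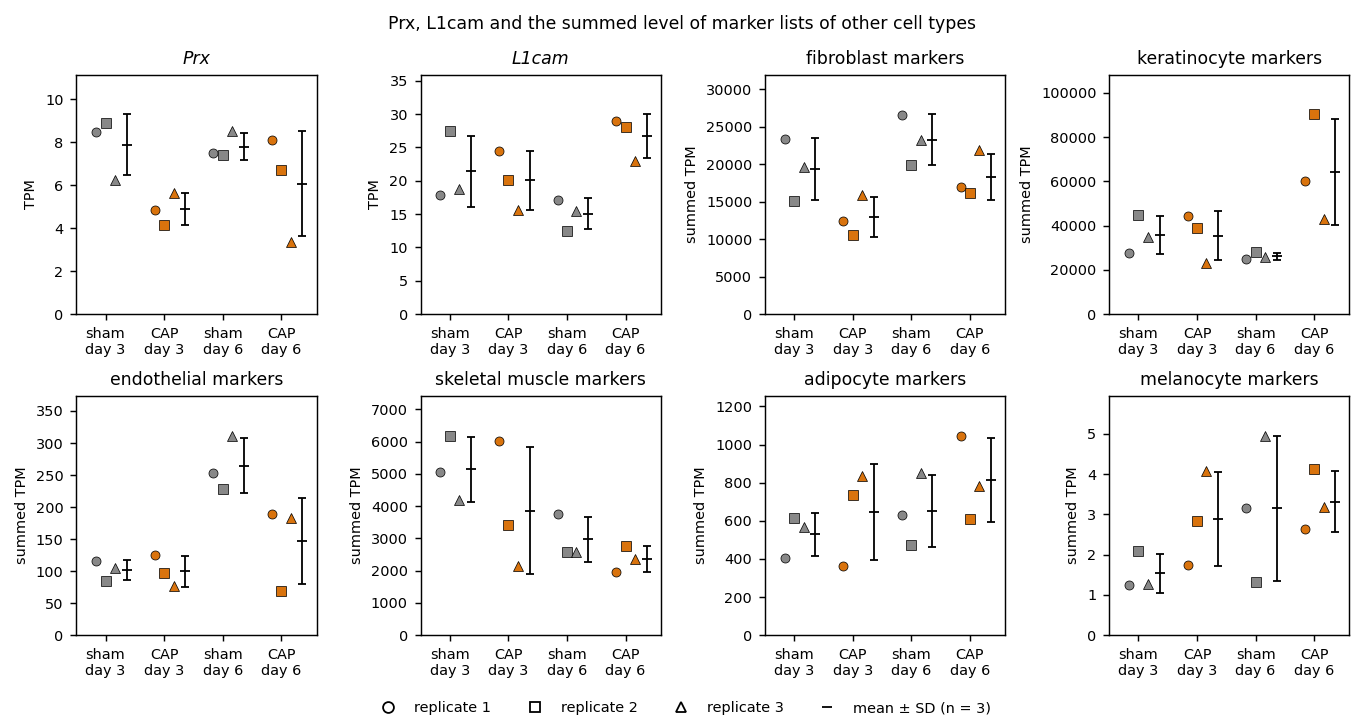
TPM of Prx and L1cam and the summed TPM of 6 marker lists of other cell types (vertical axes, from 0) in the 12 libraries, with a point per library and bars for the mean ± SD of 3 libraries. At day 6 the keratinocyte sum is 42848 TPM or more in CAP-treated wounds and 28037 TPM or less in sham wounds, the endothelial sum is lower in all CAP-treated libraries, and the other 4 sums overlap.

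How the 8 genes varied together was described from the deviation of each library from its group mean on log2(TPM + 0.1), over 12 libraries. The points share the scaling of each library, so these correlations describe the libraries and were not tested. Of the 28 pairs of genes, 23 had a positive correlation, with a median r of 0.39. Mbp and Prx had the highest, at 0.88, and Sox10 and Scn7a the lowest, at -0.52. Pmp22 and Scn7a correlated with Prx at -0.01 and -0.02.

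The lowest value of each of the 8 genes fell in 1 of 5 libraries and the highest in 1 of 3. CAP-treated day 6 replicate 3 was the lowest of the 12 libraries for 3 of the 8 genes, Mbp, Prx and Sox10, and for 5 of the 14 other myelin genes. CAP-treated day 6 replicate 2 was the lowest for 4 of these 14, and sham day 3 replicate 2 was the highest for Mbp, Prx and Sox10. Sham day 6 replicate 3 was the highest for Pmp22, Cdh19, Scn7a and S100b. Among the 16163 genes whose mean was 1 TPM or more, the 5 whose deviations were most like the mean of the 8 were Drg1 (r = 0.93), Acbd5 (0.93), Bcs1l (0.92), Cdkn3 (0.91) and Ccdc112 (0.90), over 12 libraries. The other Schwann cell genes at this level ranged from Pllp, a plasmolipin of myelin, at rank 27 (0.86) to Fabp7 at rank 16118 (-0.75). Drp2 was at 0.33, Ncmap at 0.21 and Ncam1 at -0.32, so these genes did not vary with the 8 as a set.

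Some of the 8 loci share bases with other genes, and no source used here states the strand setting of the counting, so that reads there could be assigned to either. S100b, at chr10:76253853-76261159 (+) on mm10 and 0.339 to 1.85 TPM, overlaps Dip2a on the opposite strand, at a mean of 20.7 TPM. Mbp overlaps the pseudogene Rpl21-ps8 on the opposite strand, at a mean of 20.2 TPM, and Prx, at chr7:27497388-27520214 (+), an antisense gene at a mean of 0.340 TPM. Pmp22, at chr11:63128982-63159547 (+), Sox10, at chr15:79154908-79165240 (-), and Scn7a, at chr2:66673425-66784914 (-), overlap no annotated gene. Cdh19, at chr1:110888326-110977584 (-), overlaps 2 unclassified loci at or near 0 TPM.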

How the data were processed

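RNA from 12 wound libraries was sequenced as paired-end reads after SureSelect XT HS2 mRNA library preparation. The submitters' processing notes name bcl2fastq, Trimmomatic 0.36 and mm10, and the authors estimated expression with StringTie. The aligner, annotation release and strand setting were not given in the sources used here. The deposited tables hold TPM for 55487 genes, with 0.0001 in place of 0; of these, 54900 have the coordinates of GENCODE M21. The tables hold 0 other columns of per-sample values and no counts, so the design's test for normalized values was used. The authors' own fold changes were not used.

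Here, log2(TPM + 0.1) was fitted in R 4.3.3 with limma 3.58.1 (trend on, robust off). Genes entered where both groups averaged 0.3 TPM or more (for the interaction, where at least 1 group did). Benjamini-Hochberg adjustment ran over all genes. Fold changes on this scale understate the change of low genes. The threshold was the study's: 2-fold or more with an unadjusted p under 0.05. Exact 2-sided permutation tests used all 20 divisions of 6 libraries. In data simulated on the day 3 comparison, with 18387 genes, 95% of 100 genes changed by a log2 of 1.5 were recovered. The changed genes were drawn from those of higher mean level, above the means of Sox10, S100b and Cdh19, and 120 unchanged genes were also called. No difference of the 8 genes was as large as 1.5, so this recovery does not describe them. Tables were read and figures drawn in Python 3.11.15 (pandas 2.3.3, numpy 2.4.6, matplotlib 3.10.9). Named genes were the 8 members, up to 4 genes of each list by mean level, those past the threshold, and the 5 genes with the most similar pattern. The members and lists were chosen with earlier results of these data known, and 2 other myelin genes are not reported here. Alternatives were a pseudocount of 1 TPM, no filter, a joint fit, the replicate number as a block, median-ratio scaling and leaving out each library.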

Additional observations from a re-analysis of the deposited data

Results flagged for a closer look

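L1cam is listed because the test of the difference between its CAP effects at the 2 days gave an unadjusted p under 0.05, as it did for 1 of the 8 genes and for 11.3% of all genes. The effect at day 6 was higher than that at day 3 by 0.91 on the log2(TPM + 0.1) scale, with a log2 difference of 0.83 between CAP-treated and sham wounds at day 6 and of -0.09 at day 3 (limma interaction term, unadjusted p = 0.00925, adjusted p = 0.428). At day 6 the gene was higher in 3 of 3 CAP-treated libraries than in any sham library. The difference was under 2-fold and did not pass adjustment over all genes.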

How the results depend on the processing

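The direction of most of the values named held under the alternatives: of 275 values of single genes recomputed under settings other than leaving out a library, 260 kept their direction and their side of the threshold, and the 7 that turned were all near 0. With median-ratio scaling these were Pmp22 at 0.050 and Scn7a at 0.017 for CAP at day 3, Sox10 at -0.00085 for sham wounds between the days, S100b at 0.0265 for CAP-treated wounds between the days and Mbp at 0.042 for the difference between the CAP effects, and with a pseudocount of 1 TPM Sox10 at -0.00025 and S100b at 0.0063. The 8 calls that were lost belong to Ncmap, Fabp7, Gfra1, Nfasc, Gap43 and Uchl1. The number of genes past the threshold in the whole table depended on the setting. In the order CAP at day 3, CAP at day 6, sham wounds between the days, CAP-treated wounds between the days and the difference between the CAP effects, a pseudocount of 1 TPM gave 154, 385, 405, 299 and 580 against 290, 697, 688, 507 and 994. With no filter on low values 570, 1158 and 846 genes passed at CAP day 3, in sham wounds and in CAP-treated wounds between the days. The number of the 8 genes with an unadjusted p under 0.05 was 1 in place of 2 with no filter in the first 3 comparisons, with a joint fit at day 3 and with median-ratio scaling at day 3 and day 6, and 1 in place of 0 with median-ratio scaling in CAP-treated wounds between the days. The joint fit was not applicable to the difference between the CAP effects, which already used all libraries.

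The replicate numbers of the labels did not show that libraries were paired. Deviations of same-numbered libraries from their group means correlated at -0.17 to 0.29 over genes, and at CAP day 6 and in sham wounds between the days each library correlated best with its own number, as a hint from the data only. With the replicate number as a block, 1 of the 8 genes had an unadjusted p under 0.05 at day 3, 3 at day 6, 1 in sham wounds and 1 in CAP-treated wounds between the days, none passed the threshold, and Fabp7 at day 6 lost its call at a log2 difference of -1.95 (limma, unadjusted p = 0.0668).

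With each library left out in turn, genes past the threshold numbered 204 to 510 at CAP day 3, 311 to 1483 at CAP day 6, 641 to 873 in sham wounds and 382 to 886 in CAP-treated wounds between the days, and 657 to 1777 for the difference between the effects. The highest of these came without CAP-treated day 3 replicate 1 at day 3 (510) and without CAP-treated day 6 replicate 3 elsewhere (1483, 886 and 1777), and the low counts of 311 and 657 without CAP-treated day 6 replicate 2. At CAP day 6, 1430 genes in place of 0 had an adjusted p under 0.05 without CAP-treated replicate 3 (limma). Members at an unadjusted p under 0.05 numbered 1 to 3 at day 3, 1 to 2 at day 6, 1 to 2 and 0 to 2 between the days, and 1 to 2 for the difference between the effects, with 0 to 1 past the threshold at day 6 and for that difference. Log2 differences that turned ranged, for CAP at day 3, from -0.27 to 0.13 (Pmp22), -0.14 to 0.0041 (Scn7a), -0.24 to 0.11 (L1cam) and -0.28 to 0.34 (S100b), and at day 6 from -0.48 to 0.12 (Scn7a) and -0.89 to 0.19 (S100b). In sham wounds between the days they ranged from -0.16 to 0.19 (Sox10), -0.16 to 0.094 (Prx), -0.33 to 0.14 (Cdh19) and -0.18 to 0.89 (S100b), and in CAP-treated wounds from -0.24 to 0.10 (Mbp), -0.45 to 0.22 (Sox10), -0.023 to 0.60 (Prx), -0.30 to 0.27 (Cdh19) and -0.31 to 0.37 (S100b). For the difference between the effects they ranged from -0.17 to 0.17 (Mbp), -0.46 to 0.22 (Sox10), -0.023 to 0.60 (Prx), -0.21 to 0.37 (Cdh19), -0.44 to 0.17 (Scn7a) and -0.91 to 0.17 (S100b). The cause of these changes was not tested. A left-out library leaves 2 in its group, whose spread is then estimated with that of the other group. Depth is unknown for TPM, and the genes under about 1 TPM, Cdh19 and S100b, had the widest intervals.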

Other observations

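A pair of broad markers of axons and neuroendocrine cells, which are not part of the Schwann cell lists, were above 1 TPM in every library. Uchl1, a ubiquitin hydrolase abundant in nerve fibres, was at 4.36, 4.01 and 5.62 TPM in sham wounds and 1.76, 1.497 and 3.12 TPM in CAP-treated wounds at day 6, where it fell by 1.15 on the log2 scale (SE 0.31; limma, unadjusted p = 0.00700, adjusted p = 0.208). All CAP-treated libraries were lower than all sham libraries, as in 18.0% of all genes tested. The difference was short of 2-fold with 1 TPM added before the log (-0.88) and without CAP-treated replicate 2 (-0.95). Of the 17 neuron and axon markers, 5 were tested at day 6, with 3 lower and 2 higher in CAP-treated wounds, and the higher ones, Tubb3 (0.15) and Pou4f1 (0.47), and Stmn2 (-0.56) did not pass the threshold. Tubb3 is a tubulin of neurons that other cells can also make. In sham wounds it was at 27.3 to 34.3 TPM at day 3 and 10.9 to 18.2 TPM at day 6. It fell by 1.11 on the log2 scale between these days (SE 0.19; limma, adjusted p = 0.0380). Without sham day 6 replicate 1 it was short of 2-fold (-0.91), and Stmn2 differed by 0.47 in the same comparison (limma, adjusted p = 0.568). Neurofilament and channel genes that are more particular to neurons were too low for a comparison, with Snap25 listed at 0 in 11 of 12 libraries.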
